A study of Homo sapiens with 14 samples.

Results

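The 31 genes described here are known to be induced by low oxygen and lie outside the best-known target groups of the hypoxia-inducible factors (HIFs), namely glycolysis, pH control, mitophagy, angiogenic factors and chromatin enzymes. They were taken from a fixed list of gene symbols, all 31 of which were among the 23106 symbols counted in every library. The list was not chosen by a threshold on these values, but earlier results of these data were known when it was chosen. The counts below therefore describe the list and are not an independent test of it. By known role they comprised 6 genes of signals and their receptors (EFNA1, EFNA3, ARTN, ADORA2B, GPR146, NT5E), 4 of membrane transport and channels (SLCO4A1, SCNN1G, SLC6A8, TMEM45A), 4 of membrane traffic and scaffolds (RAB20, RAB40C, PPFIA4, SPAG4), 5 nuclear regulators (MAFF, ZNF395, PNRC1, JMJD6, YEATS2), 4 of protein turnover (WSB1, KCTD11, KLHL24, ANKZF1), 4 linked to cell survival or arrest (CCNG2, NOL3, FAM162A, C10orf10) and 2 enzymes (AK4, RIMKLA). The other 2 (ANKRD37, FAM115C) were not placed in these groups.

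HIFs are dimers of an oxygen-labile alpha subunit and a stable beta subunit. When oxygen is plentiful, prolyl hydroxylases mark the alpha subunit for recognition by the von Hippel-Lindau ubiquitin ligase and destruction. In hypoxia the alpha subunit escapes this and the dimer binds a short core sequence in DNA and switches on genes, many of them shared between cell types and others restricted to a few.

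Poly(A) RNA was sequenced from PC3, a prostate carcinoma line, and HCT116, a colorectal carcinoma line, neither of which was genetically altered. Cells were kept in normoxia (21% O2) or in hypoxia (0.5% O2) for 16 h, giving 8 PC3 libraries (4 normoxic, 4 hypoxic) and 6 HCT116 libraries (3 normoxic, 3 hypoxic), described as biological replicates. Each line was grown in its own medium, so line and medium cannot be told apart. The question was how strongly each of these genes responded to hypoxia and whether the response differed between the lines.

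Total gene counts were 71228454 to 123935458 per PC3 library and 133067391 to 150630928 per HCT116 library. Markers of the lines were largely as the labels state: VIM stood at 549 CPM in normoxic PC3 against 6.78 CPM in HCT116, and CDX2 at 0 against 17.6 CPM, whereas the intestinal markers GPA33, CDX1 and VIL1 were at or near 0 in HCT116. CPM relate each count to the library's total, with TMM scaling over all 14 libraries, and log2 fold changes come from edgeR's quasi-likelihood test in each line, with Benjamini-Hochberg adjustment over all genes tested and a threshold of 0.05.

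HIFs bind a short core sequence near start sites and at more distant sites, so the stretches before the start sites are shown. The RefSeq promoter table (GRCh38.p14) held 33 start sites for 24 of the 31 genes, and the 250 bases before each start were searched for the HIF core ACGTG or GCGTG on both strands (CACGT or CACGC on the strand shown), with overlapping matches such as CACGTG counted once. A match was found at 69.7% of these 33 start sites, belonging to 18 genes, against 43.2% of all 35116 start sites in the table. The windows of the listed genes were also richer in G and C, with a median of 71.6% against 58.0%, and the part of base composition in the difference was not tested. The 6 stretches below, trimmed to bases outside annotated exons and placed on GRCh37 by exact match, belong to genes that rose in both lines and are those of at least 100 bases with the most matches. Matches are in capitals, and a match is a description of the letters, not evidence of binding.
FAM162A (GRCh37 chr3:122102779-122103007, + strand): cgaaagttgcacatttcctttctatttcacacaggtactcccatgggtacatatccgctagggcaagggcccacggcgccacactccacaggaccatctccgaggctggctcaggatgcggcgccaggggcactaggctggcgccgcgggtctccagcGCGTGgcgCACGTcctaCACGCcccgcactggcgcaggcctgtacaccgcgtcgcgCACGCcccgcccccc
AK4 (GRCh37 chr1:65613741-65613885, + strand): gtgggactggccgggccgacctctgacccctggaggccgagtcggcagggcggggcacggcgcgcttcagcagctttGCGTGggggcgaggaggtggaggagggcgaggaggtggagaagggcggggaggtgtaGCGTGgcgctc
EFNA3 (GRCh37 chr1:155051063-155051312, + strand): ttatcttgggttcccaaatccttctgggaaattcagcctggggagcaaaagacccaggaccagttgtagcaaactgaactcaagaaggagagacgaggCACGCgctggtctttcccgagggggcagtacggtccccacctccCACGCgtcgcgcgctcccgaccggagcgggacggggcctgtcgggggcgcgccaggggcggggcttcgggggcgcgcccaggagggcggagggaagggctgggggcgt
PPFIA4 (GRCh37 chr1:202995369-202995618, + strand): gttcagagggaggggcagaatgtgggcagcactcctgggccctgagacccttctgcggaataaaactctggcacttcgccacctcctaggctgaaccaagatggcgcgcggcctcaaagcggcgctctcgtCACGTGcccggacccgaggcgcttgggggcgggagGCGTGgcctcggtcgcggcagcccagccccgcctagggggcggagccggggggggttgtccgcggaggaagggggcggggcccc
WSB1 (GRCh37 chr17:25620890-25621101, + strand): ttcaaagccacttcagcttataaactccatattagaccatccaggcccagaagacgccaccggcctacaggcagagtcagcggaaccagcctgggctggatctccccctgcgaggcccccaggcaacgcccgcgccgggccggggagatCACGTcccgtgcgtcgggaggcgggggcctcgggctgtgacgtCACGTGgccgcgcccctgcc
ANKRD37 (GRCh37 chr4:186317745-186317964, + strand): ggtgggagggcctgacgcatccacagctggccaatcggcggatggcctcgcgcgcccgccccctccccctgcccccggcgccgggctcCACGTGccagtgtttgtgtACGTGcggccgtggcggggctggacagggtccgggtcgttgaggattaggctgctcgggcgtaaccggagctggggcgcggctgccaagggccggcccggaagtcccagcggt

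FAM162A held 4 separate matches, all but one of them read on the opposite strand. The stretches of PPFIA4, WSB1 and ANKRD37 each contained the palindromic form CACGTG. Some genes passed the test between the lines described below. Of these, ARTN, C10orf10 and TMEM45A had an entry in the table but no match within 250 bases. That says only that these letters are not in that window. ANKRD37, FAM115C, AK4 and NOL3 had at least 1 match, and SLCO4A1 and ANKZF1 had no entry.

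Hypoxia raised most of the listed genes in both lines. In PC3, 24 of 31 rose and 7 did not pass the threshold, where 6.03% of all 14309 genes tested rose and 5.29% fell. None of the 31 fell in PC3, with 0 also at an unadjusted p under 0.05 and 0 by DESeq2. In HCT116, 24 of the 30 testable genes rose, EFNA1 fell and 5 did not pass, against 14.6% and 11.3% of all 14120 genes tested. SCNN1G had no count in any HCT116 library and was not testable there. A rise that passed the threshold and was at least a doubling (log2 of 1) was seen for 16 genes in each line. By the same 2 conditions, 0.964% of all genes rose in PC3 and 1.55% in HCT116. The hypoxic libraries lay above the normoxic ones without overlap for 23 of 31 genes in PC3 and 25 of 30 in HCT116, as 9.62% and 20.3% of all genes did. The median log2 fold change over the listed genes was 1.06 in PC3 and 1.12 in HCT116, whereas the median over all genes tested was near 0 in each. These are bulk libraries, in which more cells carrying a transcript and more transcript per cell cannot be told apart.

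The same 20 genes rose in both lines, a double call made for 3.34% of the 13090 genes tested in both. They included the mitochondrial protein gene FAM162A, the adenylate kinase AK4, the liprin PPFIA4, the orphan receptor GPR146 and the nuclear envelope gene SPAG4. Among the 30 genes testable in both, the log2 fold change was higher in HCT116 for 23 and higher in PC3 for 7. This counts signs only, whatever the size of the difference, and was not counted over all genes. In the test between the lines described below, 6 genes passed towards HCT116 and 3 towards PC3. As a description across genes, which are not independent replicates and share libraries, the log2 fold changes of the lines had a Pearson r of 0.54 and a Spearman rho of 0.59 (n = 30 genes).

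**Figure D1:**
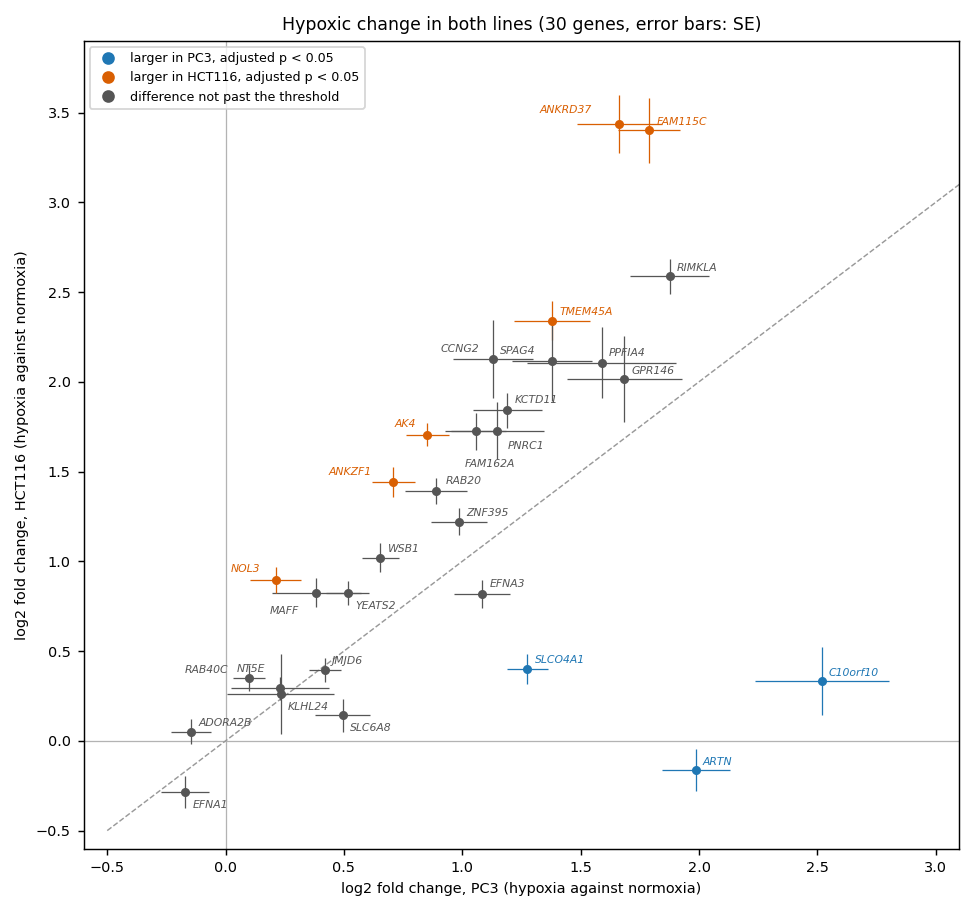
Log2 fold change (hypoxia against normoxia) of 30 listed genes in PC3 (x axis, n = 4 and 4 libraries) and HCT116 (y axis, n = 3 and 3), with SE bars and a dashed line of equality. C10orf10, ARTN and SLCO4A1 lie far to the right of that line, and ANKRD37 and FAM115C lie farthest above it.

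The ligands split. EFNA1 and EFNA3 encode membrane-anchored ephrin-A ligands of the Eph receptors, and EFNA3 rose in both lines whereas EFNA1 did not. They lie near each other on chromosome 1, at 155051313 to 155060014 (EFNA3) and 155100352 to 155107375 (EFNA1) on GRCh37. In PC3 its level was 6.50 ± 0.421 CPM (SD, n = 4) in normoxia and 13.7 ± 2.32 CPM (SD, n = 4) in hypoxia (log2 fold change 1.08 ± 0.12 SE, edgeR adjusted p = 0.000899), and in HCT116 16.7 ± 1.64 CPM (SD, n = 3) and 29.2 ± 0.786 CPM (SD, n = 3) (log2 fold change 0.82 ± 0.077 SE, edgeR adjusted p = 3.5e-05). Of its exon bases, 43.9% are shared with the read-through transcript EFNA4-EFNA3, so part of its count may belong to that transcript. EFNA1 measured 8.72, 8.58, 7.89 and 8.17 CPM in normoxia and 7.79, 7.76, 7.77 and 6.17 CPM in hypoxia in PC3, the hypoxic libraries all lying below the normoxic ones (log2 fold change -0.17 ± 0.10 SE, edgeR adjusted p = 0.31). In HCT116 it measured 8.70, 9.05 and 9.28 CPM in normoxia and 7.82, 7.31 and 6.81 CPM in hypoxia, again without overlap. The HCT116 fall was small (log2 fold change -0.28 ± 0.089 SE, edgeR adjusted p = 0.0367) and did not pass when normoxia replicate 1, 2 or 3 or hypoxia replicate 2 or 3 was left out (adjusted p of 0.0527 to 0.111), nor when both lines shared 1 fit (edgeR adjusted p = 0.077).

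ARTN, the neurotrophic factor artemin that signals through the RET receptor, responded in PC3 but did not pass the threshold in HCT116. It measured 3.77, 3.89, 3.21 and 4.75 CPM in normoxia and 16.9, 17.0, 12.5 and 15.3 CPM in hypoxia in PC3. All 4 hypoxic libraries lay well above the normoxic ones, a 3.96-fold rise (log2 fold change 1.99 ± 0.14 SE, edgeR adjusted p = 0.00013). In HCT116 it measured 6.72, 6.65 and 8.59 CPM in normoxia and 5.89, 6.80 and 6.69 CPM in hypoxia, with overlapping ranges (log2 fold change -0.16 ± 0.12 SE, edgeR adjusted p = 0.329). The difference between the lines passed its own test (difference of log2 fold changes 2.16 ± 0.21 SE, edgeR adjusted p = 4.14e-05).

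The adenosine genes responded little. NT5E, the surface enzyme that makes adenosine from AMP, measured 234, 173, 184 and 128 CPM in normoxia and 276, 187, 217 and 160.4 CPM in hypoxia in PC3, with wide overlap (log2 fold change 0.23 ± 0.21 SE, edgeR adjusted p = 0.518). Its normoxic and hypoxic values moved together by replicate number, and with that number as a block it passed (edgeR adjusted p = 0.0181). In HCT116 it measured 129, 124 and 126 CPM in normoxia and 148, 149 and 163 CPM in hypoxia, a 1.22-fold rise (log2 fold change 0.29 ± 0.061 SE, edgeR adjusted p = 0.00604) that did not pass in 1 fit over both lines (edgeR adjusted p = 0.384). ADORA2B, an adenosine receptor, measured 45.1, 51.3, 49.0 and 50.2 CPM in normoxia and 39.5, 42.8, 42.6 and 51.5 CPM in hypoxia in PC3. In HCT116 the values were 66.1, 59.0 and 61.3 CPM in normoxia and 66.3, 64.0 and 60.4 CPM in hypoxia. The ranges overlapped in both lines and neither change passed (log2 -0.14 ± 0.085 SE and 0.051 ± 0.069 SE), although without PC3 hypoxia replicate 4, the highest of its group, ADORA2B was called lower (log2 -0.22, edgeR adjusted p = 0.0349). The receptor gene GPR146 rose 3.22-fold in PC3 and 4.04-fold in HCT116 from normoxic means of 0.639 and 0.461 CPM. A long non-coding RNA on the opposite strand covers 49.0% of its exon bases, and the strand setting of the counting was not given in the sources used here.

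Of the membrane proteins, SCNN1G was detected in PC3 and not in HCT116. SCNN1G encodes the gamma subunit of the epithelial sodium channel. It measured 4.43, 3.56, 4.39 and 4.59 CPM in normoxia and 13.2, 21.5, 18.5 and 21.6 CPM in hypoxia in PC3, every hypoxic library lying above every normoxic one (log2 fold change 2.14 ± 0.16 SE, edgeR adjusted p = 0.000134). In HCT116 it had 0 counts in all 6 libraries, so that its level was at least 189-fold higher in PC3 in normoxia and at least 792-fold higher in hypoxia, taking 3 counts per library as the limit that a count of 0 allows; this limit covers counting error only. No response in HCT116 could be measured at this depth.

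SLCO4A1, an organic anion and thyroid hormone transporter, had the highest mean level of the listed genes in hypoxic PC3 per length (118 CPM per kb of exon). It measured 211, 180.0, 178 and 209 CPM in normoxia and 481, 479.6, 426 and 492 CPM in hypoxia in PC3. The HCT116 libraries held 49.8, 44.7 and 52.8 CPM in normoxia and 61.8, 59.9 and 70.9 CPM in hypoxia. The rise was 2.42-fold in PC3 (log2 fold change 1.28 ± 0.088 SE, edgeR adjusted p = 0.00013) and 1.32-fold in HCT116 (log2 fold change 0.40 ± 0.083 SE, edgeR adjusted p = 0.00538). The PC3 rise was the larger by 0.89 ± 0.13 SE on the log2 scale (edgeR adjusted p = 0.00184).

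TMEM45A, a multi-pass membrane protein, measured 13.6, 9.16, 8.53 and 9.34 CPM in normoxia and 25.7, 25.1, 23.6 and 31.2 CPM in hypoxia in PC3. The level in HCT116 was 5.46, 6.01 and 6.62 CPM in normoxia and 26.5, 34.2 and 30.0 CPM in hypoxia. It rose 2.60-fold and 5.07-fold respectively (log2 fold change 1.38 ± 0.16 SE, edgeR adjusted p = 0.00122; log2 fold change 2.34 ± 0.11 SE, edgeR adjusted p = 7.3e-08). SLC6A8, the creatine transporter, measured 96.8, 115, 121 and 109 CPM in normoxia and 120.2, 161, 161 and 178 CPM in hypoxia in PC3, where hypoxia replicate 1 fell within the normoxic range. Its rise passed narrowly (log2 fold change 0.49 ± 0.11 SE, edgeR adjusted p = 0.025) and did not pass when any of PC3 normoxia replicates 1 to 4 or hypoxia replicates 2 and 3 was left out (edgeR adjusted p of 0.0503 to 0.0735). In HCT116 it measured 150.1, 127 and 124 CPM in normoxia and 156, 128 and 152 CPM in hypoxia, which overlapped (log2 fold change 0.14 ± 0.093 SE, edgeR adjusted p = 0.282).

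**Figure D2:**
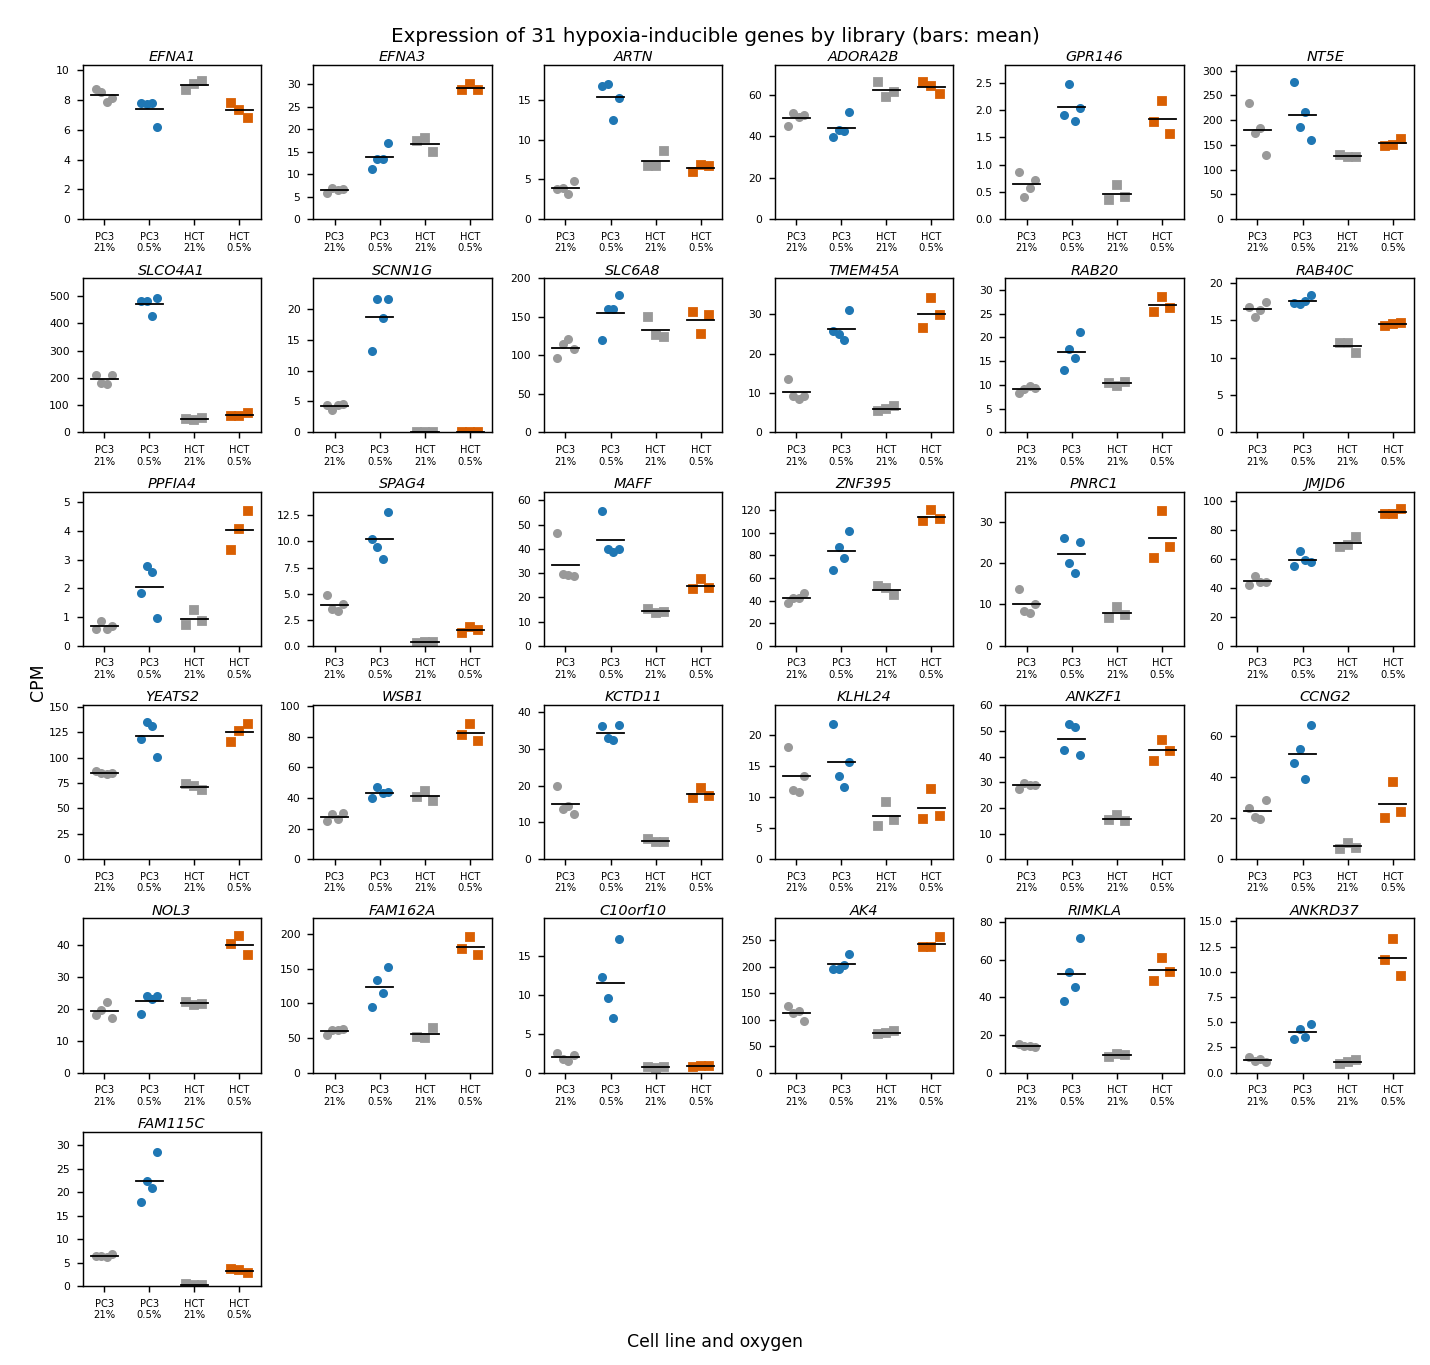
Level in CPM (y axis, linear from 0, scaled per gene) of each of the 31 genes in every library, by line and oxygen (x axis; HCT is HCT116), with a bar at the group mean. SCNN1G is at 0 in all 6 HCT116 libraries, and the hypoxic libraries of EFNA1 lie below the normoxic ones in both lines.

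All 4 genes of membrane traffic and scaffolding rose in HCT116, and 3 of 4 in PC3. RAB20, a small GTPase of endosomes and phagosomes, rose 1.85-fold in PC3 and 2.62-fold in HCT116. SPAG4, a SUN-domain protein of the nuclear envelope, rose 2.60-fold and 4.33-fold, from normoxic means of 3.92 CPM in PC3 and 0.355 CPM in HCT116. PPFIA4, a liprin-alpha scaffold, measured 0.587, 0.851, 0.572 and 0.704 CPM in normoxia and 1.83, 2.78, 2.57 and 0.953 CPM in hypoxia in PC3, with hypoxia replicate 4 only just above the highest normoxic library. It passed (log2 fold change 1.59 ± 0.31 SE, edgeR adjusted p = 0.0136), but not without PC3 normoxia replicate 3 (edgeR adjusted p = 0.056), and rose 4.30-fold in HCT116 (log2 fold change 2.11 ± 0.20 SE, edgeR adjusted p = 3.2e-05). RAB40C, a Rab-like subunit of a ubiquitin ligase, measured 16.7, 15.4, 16.4 and 17.5 CPM in normoxia and 17.3, 17.2, 17.6 and 18.4 CPM in hypoxia in PC3, which overlapped (log2 fold change 0.10 ± 0.067 SE, edgeR adjusted p = 0.37). In HCT116 it rose by a modest 1.27-fold (log2 fold change 0.35 ± 0.074 SE, edgeR adjusted p = 0.00622).

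The nuclear regulators all rose in HCT116 and 4 of 5 rose in PC3. ZNF395, a zinc-finger protein, rose 1.98-fold and 2.33-fold in PC3 and HCT116, and PNRC1, a nuclear receptor coactivator, 2.22-fold and 3.31-fold. FBXO16, which shares 35.0% of the exon bases of ZNF395 on the same strand, fell in both lines (log2 -0.64 and -0.43). JMJD6, an oxygenase that hydroxylates lysines, changed by nearly the same amount in each line (log2 0.42 ± 0.068 SE and 0.40 ± 0.065 SE), and YEATS2, a reader of acylated histones, by 0.52 ± 0.091 SE and 0.82 ± 0.067 SE.

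MAFF, a small Maf transcription factor, measured 46.4, 29.5, 29.2 and 28.9 CPM in normoxia and 55.8, 39.9, 38.5 and 40.0 CPM in hypoxia in PC3. Replicate 1 was the highest library in both conditions, and without the pairing the change did not pass (log2 fold change 0.38 ± 0.19 SE, edgeR adjusted p = 0.219). Within each replicate number MAFF was higher in hypoxia in 4 of 4 pairs, and it passed with replicate number as a block (edgeR adjusted p = 0.00282), without both replicate 1 libraries (log2 0.44, edgeR adjusted p = 0.00419) and without normoxia replicate 1 alone (log2 0.59, edgeR adjusted p = 0.0292). In HCT116 it rose 1.77-fold (log2 fold change 0.83 ± 0.079 SE, edgeR adjusted p = 3.92e-05).

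Of the genes of protein turnover, WSB1, KCTD11 and ANKZF1 rose in both lines and KLHL24 passed in neither. WSB1, a substrate adaptor of a ubiquitin ligase, rose 1.57-fold in PC3 and 2.03-fold in HCT116, and KCTD11, a cullin adaptor, 2.28-fold and 3.58-fold. ANKZF1, which acts in ribosome quality control, measured 27.3, 29.7, 29.1 and 28.9 CPM in normoxia and 42.7, 52.7, 51.3 and 40.5 CPM in hypoxia in PC3. HCT116 libraries gave 15.3, 17.1 and 15.0 CPM in normoxia and 38.4, 46.5 and 42.2 CPM in hypoxia. Neither line showed overlap, and the rise was 1.63-fold in PC3 (log2 fold change 0.71 ± 0.09 SE, edgeR adjusted p = 0.00193) against 2.72-fold in HCT116 (log2 fold change 1.44 ± 0.083 SE, edgeR adjusted p = 4.46e-07). KLHL24, an adaptor for the turnover of keratins, measured 18.1, 11.1, 10.8 and 13.4 CPM in normoxia and 21.8, 13.4, 11.7 and 15.7 CPM in hypoxia in PC3. In HCT116 the values were 5.32, 9.16 and 6.36 CPM in normoxia and 6.47, 11.3 and 6.92 CPM in hypoxia. In both lines the spread between libraries of 1 condition was wider than the shift (log2 fold change 0.23 ± 0.23 SE, edgeR adjusted p = 0.545; log2 fold change 0.26 ± 0.22 SE, edgeR adjusted p = 0.417). In PC3, where all 4 pairs were higher in hypoxia, KLHL24 passed with the replicate block (edgeR adjusted p = 0.023).

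Of the survival genes, C10orf10 had the largest positive difference between the lines. C10orf10, a FOXO-regulated gene also named DEPP1 and located on chromosome 10 at 45466429 to 45474257 (GRCh37), measured 2.54, 1.81, 1.48 and 2.27 CPM in normoxia and 12.3, 9.70, 7.07 and 17.3 CPM in hypoxia in PC3. The hypoxic libraries ranged widely but all exceeded the normoxic ones, and the 5.73-fold rise ranked 9 among the rises of all genes tested in PC3 (log2 fold change 2.52 ± 0.28 SE, edgeR adjusted p = 0.00104). In HCT116 it measured 0.750, 0.617 and 0.709 CPM in normoxia and 0.790, 0.899 and 0.898 CPM in hypoxia. There too the hypoxic libraries lay above the normoxic ones, as for 20.3% of all genes tested in HCT116. The rise did not pass the threshold (log2 fold change 0.33 ± 0.19 SE, edgeR adjusted p = 0.224). RASSF4 shares 23.3% of the exon bases of C10orf10 on the opposite strand and rose in PC3 as well (log2 1.08 ± 0.11 SE), with 0.22 ± 0.17 SE in HCT116. Without a known strand setting, reads of the genes over these shared bases cannot be told apart, and the size of that part was not tested.

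NOL3, an inhibitor of apoptosis, showed the opposite preference. It measured 18.2, 19.6, 22.3 and 17.2 CPM in normoxia and 18.3, 24.0, 23.2 and 24.1 CPM in hypoxia in PC3, where the ranges overlapped (log2 fold change 0.21 ± 0.11 SE, edgeR adjusted p = 0.236), and 22.3, 21.4 and 21.5 CPM in normoxia and 40.4, 42.8 and 36.9 CPM in hypoxia in HCT116, where it rose 1.86-fold (log2 fold change 0.90 ± 0.072 SE, edgeR adjusted p = 8.51e-06). CCNG2, an unconventional cyclin linked to cell cycle arrest, measured 25.1, 20.8, 19.4 and 28.6 CPM in normoxia and 46.9, 53.7, 38.9 and 65.2 CPM in hypoxia in PC3. The HCT116 libraries held 5.09, 7.87 and 5.69 CPM in normoxia and 20.1, 37.4 and 23.1 CPM in hypoxia. The hypoxic libraries were above the normoxic ones in both lines, and the rise was 2.19-fold in PC3 (log2 fold change 1.13 ± 0.17 SE, edgeR adjusted p = 0.00423) and 4.37-fold in HCT116 (log2 fold change 2.13 ± 0.22 SE, edgeR adjusted p = 6.39e-05). FAM162A, whose promoter held the most matches, encodes a mitochondrial protein linked to hypoxic cell death. It rose from 59.8 ± 4.09 CPM (SD, n = 4) to 124 ± 25.1 CPM (SD, n = 4) in PC3 and from 55.6 ± 8.20 CPM (SD, n = 3) to 182 ± 12.8 CPM (SD, n = 3) in HCT116.

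Both enzymes rose in both lines. AK4, an adenylate kinase of the mitochondrial matrix, measured 126, 113, 117 and 97.8 CPM in normoxia and 195, 196, 202 and 223 CPM in hypoxia in PC3. The level in HCT116 was 73.7, 74.0 and 78.3 CPM in normoxia and 236, 237 and 256 CPM in hypoxia. Its replicates were tight in HCT116, and the rise was 1.81-fold in PC3 (log2 fold change 0.85 ± 0.092 SE, edgeR adjusted p = 0.000854) and 3.26-fold in HCT116 (log2 fold change 1.71 ± 0.065 SE, edgeR adjusted p = 1.63e-08). RIMKLA, which makes the dipeptide N-acetylaspartylglutamate, measured 15.1, 14.1, 14.1 and 13.7 CPM in normoxia and 38.0, 53.7, 45.8 and 71.5 CPM in hypoxia in PC3. HCT116 libraries gave 8.19, 9.80 and 9.45 CPM in normoxia and 48.8, 60.7 and 53.5 CPM in hypoxia. It was among the 5 largest rises of the list in each line, at 3.67-fold (log2 fold change 1.88 ± 0.17 SE, edgeR adjusted p = 0.000321) and 6.01-fold (log2 fold change 2.59 ± 0.098 SE, edgeR adjusted p = 1.63e-08).

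ANKRD37 and FAM115C were the strongest of the list in HCT116. ANKRD37, an ankyrin-repeat protein, measured 1.56, 1.11, 1.32 and 1.06 CPM in normoxia and 3.35, 4.28, 3.57 and 4.80 CPM in hypoxia in PC3. In HCT116 the values were 0.884, 1.06 and 1.25 CPM in normoxia and 11.1, 13.3 and 9.59 CPM in hypoxia. From normoxic levels that did not differ past the threshold it rose 3.17-fold in PC3 (log2 fold change 1.66 ± 0.18 SE, edgeR adjusted p = 0.000849) and 10.8-fold in HCT116 (log2 fold change 3.44 ± 0.16 SE, edgeR adjusted p = 8.82e-08), rank 10 among all genes tested. UFSP2, which shares 40.3% of the exon bases of ANKRD37 on the opposite strand, had log2 fold changes of -0.0097 and 0.26. FAM115C, a TRP channel-associated factor also named TCAF2, measured 6.47, 6.40, 6.12 and 6.87 CPM in normoxia and 17.8, 22.3, 20.8 and 28.4 CPM in hypoxia in PC3. The HCT116 libraries held 0.335, 0.291 and 0.306 CPM in normoxia and 3.55, 3.48 and 2.71 CPM in hypoxia. It rose 3.46-fold in PC3 (log2 fold change 1.79 ± 0.13 SE, edgeR adjusted p = 0.000133) and 10.6-fold in HCT116 (log2 fold change 3.40 ± 0.18 SE, edgeR adjusted p = 2.23e-07), yet its hypoxic level in HCT116 stayed below its normoxic level in PC3. FAM115C has close copies in the genome, so its count is uncertain where reads could be split between them.

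The difference between the lines was tested directly for 30 genes. The log2 rise was larger in PC3 for C10orf10, ARTN and SLCO4A1 and larger in HCT116 for ANKRD37, FAM115C, TMEM45A, AK4, ANKZF1 and NOL3, where 1.01% of all genes tested differed towards PC3 and 1.31% towards HCT116. C10orf10 differed by 2.20 ± 0.37 SE (edgeR adjusted p = 0.00566), ANKRD37 by -1.76 ± 0.25 SE (edgeR adjusted p = 0.00184) and FAM115C by -1.59 ± 0.22 SE (edgeR adjusted p = 0.00118). The other 4 towards HCT116 ranged from TMEM45A (-0.95 ± 0.21 SE, edgeR adjusted p = 0.0301) and AK4 (-0.84 ± 0.12 SE, edgeR adjusted p = 0.00113) to ANKZF1 (-0.72 ± 0.14 SE, edgeR adjusted p = 0.0125) and NOL3 (-0.67 ± 0.15 SE, edgeR adjusted p = 0.0274). CCNG2, with a difference of -0.99 ± 0.32 SE, did not pass (edgeR adjusted p = 0.126). Of these 9 genes, C10orf10, ARTN, SLCO4A1, ANKRD37, FAM115C, AK4 and ANKZF1 passed whichever of the 14 libraries was left out.

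TMEM45A and NOL3 were less firm. TMEM45A did not pass without PC3 hypoxia replicate 2 or 3, HCT116 normoxia replicate 1, 2 or 3 or HCT116 hypoxia replicate 2 or 3 (edgeR adjusted p of 0.0518 to 0.112), and NOL3 not without PC3 normoxia replicate 2 or 3, HCT116 normoxia replicate 1, 2 or 3 or HCT116 hypoxia replicate 1 or 2 (edgeR adjusted p of 0.0588 to 0.0848). Without PC3 hypoxia replicate 4, RAB20 (log2 difference -0.62), FAM162A (-0.78) and RIMKLA (-0.89) passed too, which made 12 genes. Calls also became more common over all genes. Of 15509 tested without that library, 294 differed towards PC3 and 423 towards HCT116, against 156 and 203 of 15493 with every library kept. With the PC3 libraries paired by replicate number, 16 genes differed, 3 towards PC3 and 13 towards HCT116, when 3.8% and 4.4% of all genes did. The genes added were RAB20, MAFF, WSB1, KCTD11, CCNG2, FAM162A and RIMKLA, each with the larger rise in HCT116.

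The pairs of PC3 libraries were uniform in direction. In 29 of the 31 genes hypoxia was higher than normoxia in all 4 pairs, as in 25% of all genes tested in PC3, the exceptions being EFNA1 (0 of 4) and ADORA2B (1 of 4). With the replicate block, 27 genes rose in PC3, against 14.9% of all genes, the additions being MAFF, NT5E and KLHL24. Of the 24 genes that rose without the block, 16 had their highest hypoxic level in replicate 4, the PC3 library with the fewest counts, 7 in replicate 2 and 1 in replicate 1. How often each library was the highest over all genes was not counted. Of these 24 genes, PPFIA4, ARTN, YEATS2, WSB1 and ANKZF1 had the smallest of their 4 ratios in replicate 4.

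**Figure D3:**
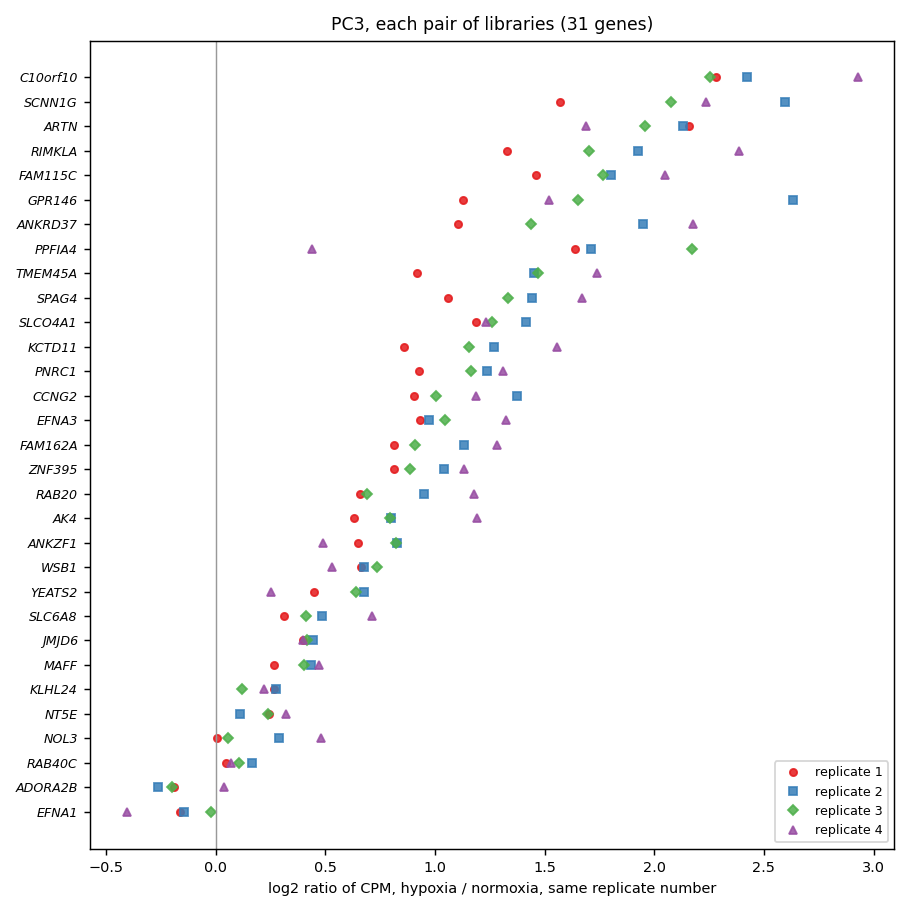
Log2 ratio of hypoxic to normoxic CPM (x axis) within each of the 4 PC3 replicate numbers (symbols) for the 31 genes (y axis, ordered by log2 fold change). EFNA1 is at or below 0 in 4 of 4 pairs and ADORA2B in all but 1, whereas C10orf10 lies farthest right in replicate 4.

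The lines also differed in normoxia. The level of 16 listed genes was higher in PC3 and that of 6 was lower, where 42.4% and 38.9% of all genes tested were, so that differing between the lines was common to most genes. FAM115C was higher in normoxic PC3 by 4.37 ± 0.18 SE on the log2 scale (edgeR adjusted p = 5.34e-12), SPAG4 by 3.47 ± 0.22 SE (edgeR adjusted p = 7.41e-10) and SLCO4A1 by 1.99 ± 0.097 SE (edgeR adjusted p = 3.54e-11). EFNA3 was lower in PC3 (-1.37 ± 0.11 SE, edgeR adjusted p = 2.14e-08), as was ARTN (-0.91 ± 0.14 SE, edgeR adjusted p = 2.96e-05). Normoxic level and rise did not order the lines alike for every gene. SLCO4A1 started higher in PC3 and rose more there, ARTN started lower in PC3 and rose more there, and FAM115C started higher in PC3 and rose more in HCT116.

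Close relatives of the listed genes had mostly smaller log2 fold changes than the listed genes that rose. Of 42 relatives from the same families, 5 rose and 1 fell among 36 testable in PC3, and 12 rose and 3 fell among 33 testable in HCT116, with medians of 0.12 and 0.21 on the log2 scale. Of all genes tested, 6.03% rose and 5.29% fell in PC3, and 14.6% rose and 11.3% fell in HCT116, so the share of relatives that rose was above that of all genes in both lines. Among listed genes that rose and had a testable relative, with the ephrins left out, the listed gene lay above every relative in 12 of 15 in PC3 and 11 of 12 in HCT116, and no relative rose beside 11 of the 15 and 5 of the 12. These genes were kept for their own rise in the same data, which favours that outcome, so the counts are only a description. Among testable genes that did not rise in PC3, EFNA1 and ADORA2B each had 2 relatives above them, and MAFF and RAB40C had 0. In HCT116, EFNA1 had 3 above it, ARTN 2, and ADORA2B and SLC6A8 1 each. Log2 fold changes are given for PC3 and HCT116 in turn. CCNG1 stood at 0.29 and -0.068 in PC3 and HCT116, neither past the threshold, beside 1.13 and 2.13 for CCNG2. AK3 stood at -0.046 and -0.15, past the threshold in neither line, and AK1 at 0.22 and 0.29, a rise that passed in HCT116, beside 0.85 and 1.71 for AK4. Of the 3 relatives of AK4 testable in HCT116, 2 rose, AK1 and another at 0.36. PNRC2 fell in HCT116 (-0.41) while PNRC1 rose (1.73). SCNN1B, the beta subunit of the same sodium channel, rose with SCNN1G in PC3, from 4.05 ± 0.801 CPM (SD, n = 4) to 11.4 ± 1.74 CPM (SD, n = 4) (log2 fold change 1.49 ± 0.16 SE, edgeR adjusted p = 0.000853), whereas the delta subunit gene SCNN1D fell (-0.68). SCNN1G and SCNN1B lie along chromosome 16, at 23194066 to 23228204 and 23289552 to 23392615 on GRCh37. EFNA4, whose locus feeds the read-through transcript with EFNA3, rose in both lines (0.50 and 0.71), as did SLC6A6 (0.60 and 0.30) and MLLT3 (0.54 and 0.51), relatives of SLC6A8 and YEATS2. GDNF, a relative of ARTN, rose in PC3 from a mean of 0.0825 CPM (2.20).

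**Figure D4:**
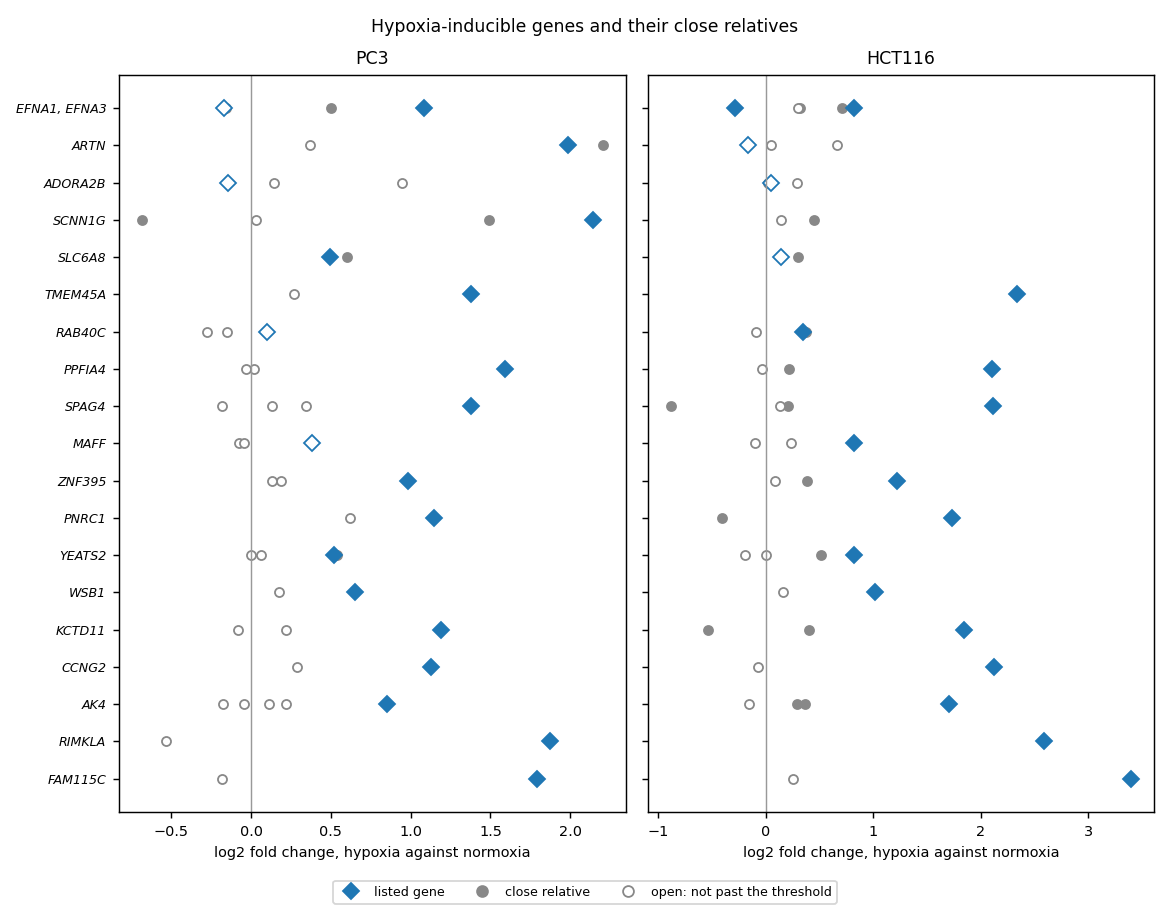
Log2 fold change (x axis) in PC3 (left) and HCT116 (right) of listed genes (blue diamonds) and their testable close relatives (grey circles), 1 family per line of the y axis, open symbols not past the adjusted p threshold. SCNN1G was not testable in HCT116, and CCNG2, RIMKLA and FAM115C stand apart from the relatives tested beside them.

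The pattern was set beside 40 HIF targets of the better-known groups, a list also chosen with earlier results of these data known. Of these, 37 rose in PC3 (median 1.01) and 39 in HCT116 (median 1.83), with all 40 above 0 on the log2 scale in each line, against the backgrounds of 6.03% and 14.6% above. In the test between lines, 18 of the 40 rose more in HCT116 and 1, the glycolytic regulator PFKFB3, rose more in PC3 (difference 1.25 ± 0.10 SE, edgeR adjusted p = 1.09e-05). Of all genes in that test, 1.31% differed towards HCT116 and 1.01% towards PC3. Of the oxygen-sensing genes, HIF1A fell in both (-0.53 and -0.63), and the hydroxylase genes EGLN1 (1.22 and 1.56) and EGLN3 (1.88 and 2.62) rose in both. EPAS1, which encodes the alpha subunit of HIF-2, stood at 274 ± 32.3 CPM (SD, n = 4) in normoxic PC3 and 22.4 ± 2.46 CPM (SD, n = 3) in normoxic HCT116, and HIF1A at 666 ± 77.7 CPM (SD, n = 4) and 213 ± 7.28 CPM (SD, n = 3). The part of these levels in the unequal response of C10orf10, ARTN, SLCO4A1 or the genes that rose more in HCT116 was not tested.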

How the data were processed

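Poly(A) RNA-seq counts of 14 libraries were used (8 of PC3 and 6 of HCT116). The deposited values are raw counts per gene symbol; per the labels and the methods of the study, the authors removed reads matching ERCC spike-ins, aligned the rest to GRCh37 (both with HISAT2 2.05) and counted reads per RefSeq gene with HTSeq 0.5.4p3. The strand setting and RefSeq release are not given in the sources used here, and spike-in counts are not used here. Per line, counts were filtered with filterByExpr, scaled by TMM and tested with edgeR 4.0.16 (quasi-likelihood, Benjamini-Hochberg adjustment, threshold 0.05) in R 4.3.3, and the differences between the lines came from 1 fit over the 14 libraries. DESeq2 1.42.0 and the other settings served as alternatives. The steps were tested on simulated data with 200 genes changed by 2-fold: 200 of them were recovered in PC3 (14348 genes), 197 in HCT116 (14115 genes) and, for the line difference, 156 (15456 genes). False calls numbered 6, 18 and 4. The simulated libraries had the same dispersion for every gene and no replicate effect, and genes with low counts were not among those changed. The real PC3 libraries did share deviations by replicate number, so these recoveries are not the power in the real data.

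All 31 genes are named, and other genes only from lists of relatives, HIF targets and HIF regulators, or where they share exon bases with a listed gene. The values of RASSF4, FBXO16 and UFSP2 were known when these were picked. The members and lists were chosen with earlier results of these data known. In PC3, same-numbered normoxic and hypoxic libraries deviated together (correlations over 14309 genes of 0.832, 0.523, 0.345 and 0.413), whereas in HCT116 not every pair did (0.0664, 0.373 and -0.0751). The main tests used no block. Values with the PC3 replicate number as a block stand beside the results they change. No 2 libraries of a group agreed within sampling noise (mean chi-square per gene of 12.5 to 268). A count of 0 allows 3 counts, or 0.0201 to 0.0447 CPM by library. Exon overlaps come from GENCODE on GRCh37. A few genes on the marker and relative lists are not reported here.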

Additional observations from a re-analysis of the deposited data

Results flagged for a closer look

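The hypoxic change differed between the lines for 9 listed genes by edgeR's quasi-likelihood test of the interaction. The log2 difference, PC3 minus HCT116, was 2.20 for C10orf10, 2.16 for ARTN and 0.89 for SLCO4A1, where PC3 had the larger rise. It was -1.76 for ANKRD37, -1.59 for FAM115C, -0.95 for TMEM45A, -0.84 for AK4, -0.72 for ANKZF1 and -0.67 for NOL3, where HCT116 had the larger rise.

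In PC3, 6 of 62 groups of 4 libraries, 1 group per gene and condition, held a library far from the other 3 by Dixon's criterion, where chance gives about 3.1. MAFF replicate 1 stood out in both conditions, at 46.4 CPM in normoxia (others 28.9 to 29.5) and 55.8 CPM in hypoxia (others 38.5 to 40.0). The same replicate number stood out for TMEM45A in normoxia, at 13.6 CPM (others 8.53 to 9.34), for YEATS2 in normoxia, at 86.7 CPM (others 84.3 to 84.5), and for NOL3 in hypoxia, at 18.3 CPM (others 23.2 to 24.1). EFNA1 in hypoxia replicate 4 was at 6.17 CPM (others 7.76 to 7.79).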

How the results depend on the processing

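The counts of called genes were 24 in PC3, 25 in HCT116, 9 for the line difference and 22 for the normoxic level, and with median-of-ratios, upper-quartile or total-count scaling they were 24, 25, 9 and 21 to 23. With a log2 change of at least 1 required, 16 passed in HCT116, 4 for the line difference and 9 for the normoxic level. With replicate number as a block in both lines, 18 genes differed between the lines, and with the block in PC3 alone, an alternative chosen after seeing the data, 16 did. Of all 15493 genes, 596 then differed towards PC3 and 710 towards HCT116, or 588 and 682 with the block in PC3 alone, against 156 and 203 in the main fit. In HCT116 the replicates share only a number, and the block left 25 calls there. Leaving out 1 library at a time gave 22 to 25 calls in PC3, 24 to 25 in HCT116, 7 to 12 for the line difference and 20 to 23 for the normoxic level. DESeq2 called 24, 25, 12 and 22. For the line difference it called 470 of 14281 genes towards PC3 and 504 towards HCT116, also more than the main fit. Without both PC3 replicate 1 libraries, also chosen after seeing the data, PC3 had 25 calls, when 1007 of all 14305 genes rose and 776 fell.

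The sign turned for 5 genes far from the threshold: RAB40C in PC3 (-0.0055) and ADORA2B in HCT116 (-0.042) with total-count scaling, JMJD6 for the line difference with upper-quartile scaling (-0.010), and, over the left-out libraries, KLHL24 in HCT116 (-0.037 to 0.50) and for the line difference (-0.27 to 0.28), NT5E (-0.21 to 0.10) and JMJD6 (-0.013 to 0.074) for the line difference; the cause was not tested. Having 3 or 4 libraries per condition limits the detection of small changes, and HCT116 counts cannot bear on SCNN1G.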

Other observations

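In HCT116, 16 of the 24 genes that rose had their highest hypoxic level in replicate 2, 7 in replicate 3 and 1 in replicate 1. The matching shares over all genes were not counted, so this is not a trait of the listed genes. ANKZF1, CCNG2, EFNA3, GPR146, KLHL24, PNRC1, RIMKLA and WSB1 were highest in replicate 2 in both conditions.

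ANKRD37 and FAM115C, with the largest rises in HCT116, reached 5.03 and 0.507 CPM per kb of exon there, whereas NT5E, which rose by 1.22-fold, was at 33.8 CPM per kb.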
